A study of Mus musculus with 6 samples.

Results

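Glycolysis turns glucose into pyruvate, and pyruvate is then either reduced to lactate and exported or oxidised in mitochondria through pyruvate dehydrogenase. The genes described here are 31 members of that route. They cover glucose and lactate transporters, the enzymes from hexokinase to lactate dehydrogenase, and the pyruvate dehydrogenase complex with its kinases. Also included are the enzymes that set the level of the activator fructose 2,6-bisphosphate. The members were taken by gene name from a deposited table of 34745 genes, in which each of the 31 names occurred once. All 31 passed the filter on low counts and are among the 13287 genes tested. In the testis, spermatogonia rely strongly on glycolysis, and later germ cells live on lactate supplied by Sertoli cells and switch on their own copies of several glycolytic enzymes.

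The libraries were made from total RNA of cultured mouse spermatogonial stem cells, the germline cells that renew themselves and feed sperm production. One group was 3 samples given 100 µM bisphenol A (BPA), an oestrogen-like building block of plastics, for about 4 days in complete medium. The other was 3 untreated samples, for which no vehicle is named, so that an effect of a solvent cannot be told apart from that of BPA. All 6 carried the strain label DBA/2J X c57BL/6J, derive from pups aged 6 days, and had been passaged 15 to 20 times, and none is labelled as carrying a genetic change. Whether the 3 replicates of a group were separate cultures or animals is not labelled, so p-values measure the spread between these samples, which may be technical.

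Each library held 13453280 to 22286517 counted reads over 13638 to 16013 genes, and mitochondrial genes took 1.97% to 2.69% of them. BPA replicate 2 stood apart from the other libraries given BPA: the chi-square per degree of freedom over genes was 64.2 and 84.5 in the pairs that held it and 22.0 in the pair that did not. Of the 10 members lower under BPA, 9 were highest in replicate 2 among the BPA libraries, and results that rest on it are given with and without it. Of 16 stem cell markers, all were detected well enough to be tested. Their summed level was 1887.0 to 2421.4 CPM (counts scaled to the same library total) in BPA libraries and 2492.4 to 2626.8 in untreated ones, with 1 marker higher and 5 lower (37.5% called, against 10.6% of all genes). Under BPA Nanos3, which germ cells need to survive, was at 15.9% of its untreated level and Pou5f1, the pluripotency factor OCT4, at 21.9% (edgeR adjusted p up to 0.000408 and 0.00474 without each library). Uchl1 was at 56.6% of its untreated level and Bcl6b at 55.4%. The call of Bcl6b was lost without BPA replicate 1 or any 1 untreated replicate (edgeR adjusted p up to 0.0934). Sall4, the marker that was higher, was at 177% of its untreated level (edgeR adjusted p = 0.038). It lost its call without BPA replicate 1 or any 1 untreated replicate (edgeR adjusted p up to 0.163). The median log2 fold change of the 16 markers was 0.05. Feeder fibroblast markers summed to 287 to 595 CPM in BPA libraries and 386 to 460 in untreated ones. Of these, 10 were tested and 0 passed, with a median log2 fold change of -0.1. Fn1 was the largest part of the sum, at 131% of its untreated level. For 2 of the 10, Col1a2 (58.9%) and Col3a1 (27.1%), every BPA library was below every untreated one, and for 0 every one was above. Over all genes tested those shares were 15.7% and 15.6%. The other markers tested ranged from 46.9% (Col6a1) to 208% (Dcn). Sertoli cell markers were scarce, at 31.7 to 53.3 CPM in BPA libraries and 23.1 to 28.1 in untreated ones. Of 12 such markers 6 could be tested and 1 passed, and Fshr and Rhox5 had 0 counts in every library. Sox9 was higher (log2 fold change 1.5, edgeR adjusted p = 0.010, and 0.0594 without untreated replicate 1). Gata4 was at 369% of its untreated level, Wt1 at 188% and Amhr2 at 26.6%, none past the threshold. Leydig and peritubular markers summed to 19.4 to 29.6 and 20.1 to 22.5 CPM in BPA and untreated libraries, and blood and endothelial markers to 36.0 to 50.6 and 64.8 to 66.5. The part of these cell type and stem cell markers in the results below was not tested, and in bulk RNA fewer cells of a type and less RNA per cell cannot be told apart.

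The question was which steps of glucose and pyruvate use had different transcript levels in BPA cultures. The enzymes that carry glucose to lactate were mostly lower under BPA, most of all lactate dehydrogenase and aldolase C. No pyruvate dehydrogenase subunit among the 31 members passed (Pdha1 did, as lower, after a GC and length correction). The kinase gene Pdk3 was higher, and so was Pdha2, a pyruvate dehydrogenase subunit gene outside the 31 members. Of the 31 members, 10 were lower and 2 higher at an adjusted p below 0.05 in edgeR's quasi-likelihood test. Of the higher ones, Pfkfb2 passed the filter on low counts only through the BPA group, and without it 11 of 30 members (36.7%) were called, 1 of them higher, and 5 lay above in every BPA library. Over all genes tested 6.28% were lower and 4.37% higher (835 and 580 genes, or 786 and 831 with scaling by library size alone), so that 38.7% of the members and 10.6% of all genes were called. The median log2 fold change, BPA over untreated, was -0.31 for the 31 members and 0.10 for all genes tested. In 13 members every BPA library was below every untreated one, and in 6 every BPA library was above, against 15.7% and 15.6% of all genes tested and 31.3% in either direction. The 17 enzymes from hexokinase to lactate dehydrogenase held 9 of the 10 lower members and none of the higher ones, with a median of -0.65. Together these 17 genes took 0.969%, 1.11% and 0.894% of the counts in BPA replicates 1 to 3, and 1.43%, 1.49% and 1.41% in untreated replicates 1 to 3. Of the 12 calls, 3 (Aldoc, Eno1 and Ldha) were kept without each library in turn. Without BPA replicate 2, 13 members were lower and 3 higher, against 11.7% and 8.81% of all genes. Without untreated replicate 2, 3 were lower and 0 higher, against 2.31% and 1.41%. At an adjusted p below 0.01, 6 were lower and 0 higher, against 2.42% and 1.17%.

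**Figure D1:**
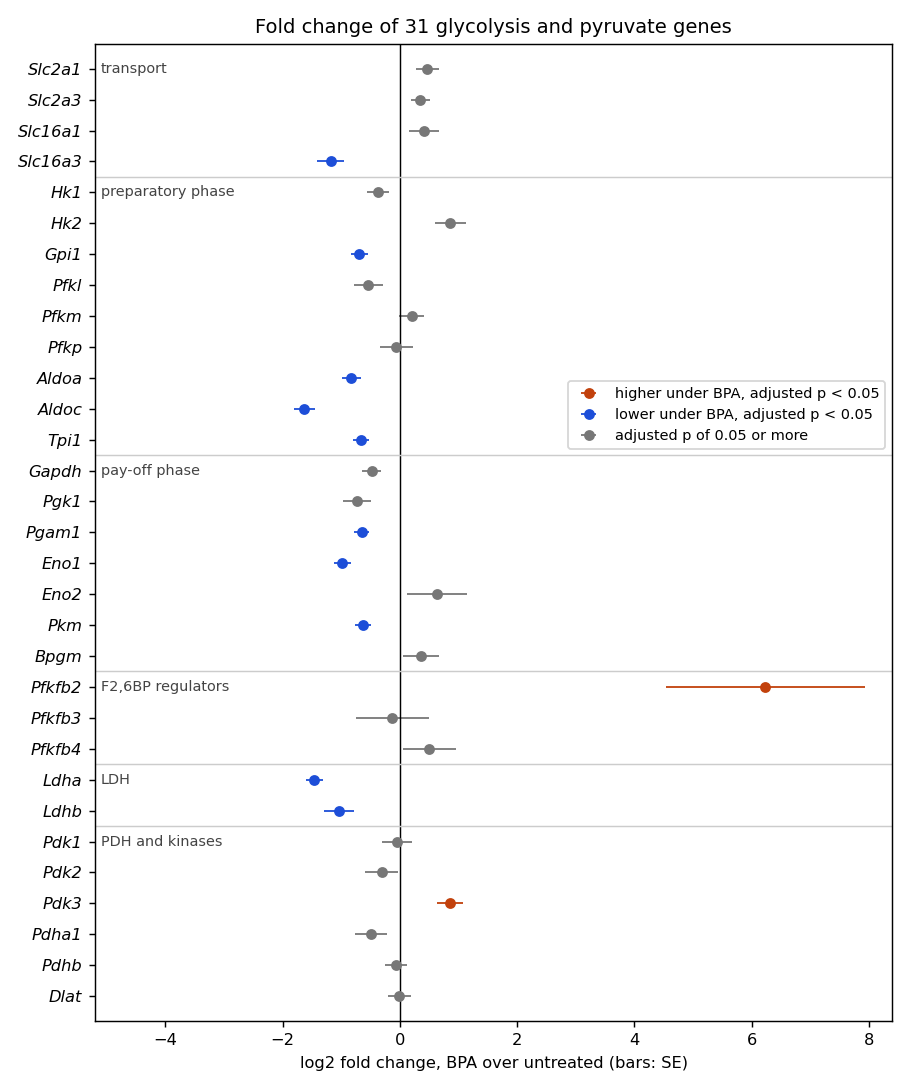
Log2 fold change of the 31 members, BPA over untreated, with bars for the standard error and members grouped by role. Filled blue points are the 10 lower members, red points the 2 higher ones (Pfkfb2, whose fitted value rests on 1 untreated read, and Pdk3), and grey points the 19 that did not pass an adjusted p of 0.05 in edgeR.

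Values below are normalised counts (CPM) in single libraries, in the order of replicates 1 to 3, and log2 fold changes carry their standard error (SE). Levels are compared between genes only as CPM per kilobase of exon. On that scale Gapdh led the members with means of 851 in BPA and 1185.2 in untreated cultures. Pkm followed with 553 in BPA and 855 in untreated cultures, and Aldoa came next with 219 in BPA and 388 in untreated cultures. The order of the first places depended on the length used: with the gene lengths behind the deposited FPKM values Pkm came first, at 1063.7 in BPA and 1644.5 in untreated cultures, and Gapdh second. Pfkfb2, Pfkfb3 and Eno2 were the lowest 3 members under either length in both groups.

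**Figure D2:**
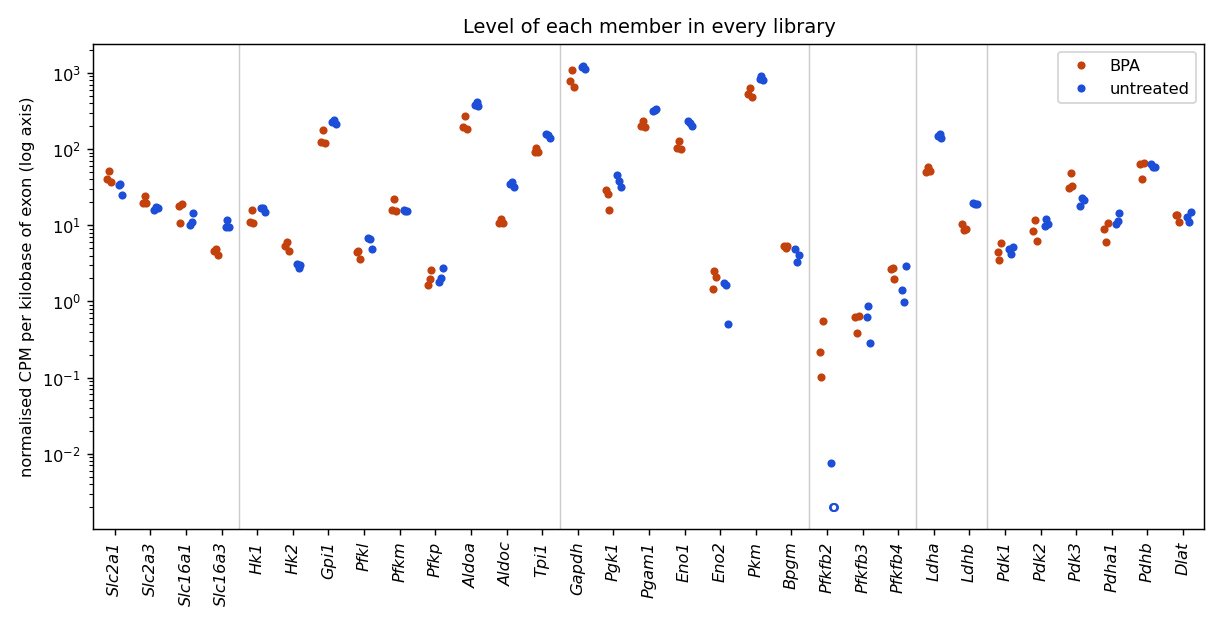
Level of each member in every library, in normalised CPM per kilobase of exon on a log axis, with BPA left of untreated and vertical lines between roles. Gapdh and Pkm stand highest, Pfkfb2 lowest, and the 2 untreated libraries with 0 Pfkfb2 counts share the open mark near the bottom of the axis.

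Among the 4 transporter genes, 1 fell, that of a lactate exporter, and the glucose transporter genes did not pass. Slc2a1, which encodes the glucose transporter GLUT1, had 142, 181 and 129 CPM in BPA libraries and 118, 121 and 88.0 in untreated ones. Slc2a3, the gene of GLUT3, had 140, 175 and 143 CPM in BPA libraries and 115, 124 and 121 in untreated ones. For both, every BPA library lay above every untreated one, but neither passed the test (log2 fold change 0.47, SE 0.19, and 0.35, SE 0.16; edgeR adjusted p = 0.15 and 0.20). In 3 of 16 alternative fits Slc2a1 passed, among them scaling by library size and a GC and length correction of each library (edgeR adjusted p = 0.0361 and 0.0206), whereas Slc2a3 passed in 1, with library size scaling (0.0393), and its log2 fold change was within 0.02 of 0 and below it after the GC and length correction, with and without a replicate block. Slc16a3 encodes MCT4, a lactate exporter of highly glycolytic cells (chromosome 11, 120948480 to 120960868, mm10). It had 24.2, 26.2 and 21.7 CPM in BPA libraries and 50, 62.6 and 49.9 CPM in untreated ones. The groups did not overlap, and Slc16a3 fell by 1.18 on the log2 scale (SE 0.23, edgeR adjusted p = 0.0075). This call was lost without untreated replicate 2 (edgeR adjusted p = 0.0534). Slc16a1, the gene of the transporter MCT1, had 78.9, 47.2 and 83.0 CPM in BPA libraries and 44.3, 48.4 and 64.4 in untreated ones. Its groups overlapped through BPA replicate 2, and the log2 fold change of 0.41 (SE 0.25) had an edgeR adjusted p of 0.34, or 0.0347 without that library. The lactate transporter genes summed per kilobase gave 20.3 ± 4.05 in BPA and 22.0 ± 2.34 in untreated cultures (SD, n = 3 each), with overlap. The glucose transporter genes gave 64.0 ± 10.3 in BPA and 47.6 ± 5.15 in untreated cultures, without overlap.

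Both hexokinase genes, whose enzymes trap glucose as its phosphate, missed the threshold, and they had opposite signs. Hk2, the inducible hexokinase, had 32.2, 36.0 and 27.6 CPM in BPA libraries and 18.5, 16.6 and 17.8 in untreated ones, with no overlap. Its log2 fold change was 0.86 (SE 0.26, edgeR adjusted p = 0.055). Hk2 passed in 5 of 16 alternative fits, among them DESeq2 (adjusted p = 0.0199) and the GC and length correction (0.0253). It missed the threshold in limma-voom (0.065), with a replicate block (0.0605) and without each library (edgeR adjusted p 0.0589 to 0.16). Hk1, the common hexokinase, had 92.9, 137 and 90.8 CPM in BPA libraries and 142, 145 and 128 in untreated ones. The overlap came from BPA replicate 2, and Hk1 was at -0.37 (SE 0.19, edgeR adjusted p = 0.25, and 0.00766 without that library; past the threshold in 3 of 16 alternative fits). Summed per kilobase, the 2 genes gave 17.9 ± 3.66 in BPA and 19.2 ± 1.03 in untreated cultures (SD, n = 3 each), a difference smaller than the spread of the BPA libraries.

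Further along the preparatory phase, in which glucose is split into triose phosphates, 4 genes fell. Gpi1, the isomerase that makes fructose phosphate, had 808, 1135.9 and 777 CPM in BPA libraries and 1453.4, 1554.9 and 1395.8 in untreated ones (-0.69, SE 0.15, edgeR adjusted p = 0.015). Aldoa, the main aldolase, had 573, 798 and 538 CPM in BPA libraries and 1098.5, 1214.6 and 1079.6 in untreated ones (-0.83, SE 0.16, edgeR adjusted p = 0.0071). Tpi1, which interconverts the triose phosphates, had 253, 284 and 252 CPM in BPA libraries and 439, 422 and 387 in untreated ones (-0.66, SE 0.14, edgeR adjusted p = 0.011). In all of these, BPA replicate 2 was the highest of its group and was still below every untreated library. Aldoc, an aldolase best known from brain (chromosome 11, 78322968 to 78327781, mm10), had 34.8, 39.3 and 34.9 CPM in BPA libraries and 115, 120 and 103 in untreated ones. Its level under BPA was 32.3% of that in untreated cultures (log2 fold change -1.63, SE 0.18, edgeR adjusted p = 0.00024), the most negative change among the 31 members. Aldoc kept its call without each library (highest edgeR adjusted p = 0.00584). Aldoa lost it without untreated replicate 2 (0.0574). Gpi1 lost it without BPA replicate 1 or 3 or untreated replicate 1 or 2, at up to 0.0953, and Tpi1 without BPA replicate 1 or untreated replicate 1 or 2, at up to 0.0854 (all edgeR adjusted p).

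The phosphofructokinase genes, whose enzyme commits sugar to glycolysis, did not pass the test. Pfkl, the liver form, had 29.4, 30.6 and 24.0 CPM in BPA libraries and 45.6, 43.8 and 32.3 in untreated ones, with no overlap (-0.54, SE 0.25, edgeR adjusted p = 0.20). Pfkm, the muscle form, had 53.3, 72.9 and 52.0 CPM in BPA libraries and 53.7, 50.7 and 51.2 in untreated ones (0.20, SE 0.21). Pfkp, the platelet form, had 22.3, 26.5 and 35.0 CPM in BPA libraries and 24.1, 27.3 and 36.4 in untreated ones (-0.06, SE 0.28). The groups overlapped for Pfkm and Pfkp (edgeR adjusted p = 0.61 and 0.92). The 3 genes summed per kilobase gave 24.1 ± 3.74 in BPA and 23.8 ± 0.92 in untreated cultures (SD, n = 3 each). Fructose 2,6-bisphosphate, the strongest activator of phosphofructokinase, is made and removed by the PFKFB enzymes. Pfkfb2 had 24, 15 and 98 reads in BPA libraries and 1, 0 and 0 in untreated ones, or 1.57, 0.743 and 4.00 CPM against 0.0548, 0 and 0 CPM. The ratio of the summed reads, scaled for depth, was 102 with an exact interval of 18.1 to 4068.5 at 95% that covers counting error only. Pfkfb2 passed the filter on low counts only through the BPA group, where BPA replicate 3 gave most of the reads, and its edgeR adjusted p was 0.036. The call was lost without BPA replicate 1 or any untreated replicate (edgeR adjusted p up to 0.109), with a replicate block (0.0877) and in limma-voom (adjusted p = 0.0957). Of its exon length, 19.5% overlaps other annotated genes, among them Yod1, and the library kit does not mark strand. Pfkfb3 had 4.65, 2.87 and 4.81 CPM in BPA libraries and 4.77, 6.59 and 2.18 in untreated ones. Pfkfb4 had 13.1, 13.4 and 9.74 CPM in BPA libraries and 6.79, 4.79 and 14.1 in untreated ones, and both overlapped between groups (-0.13, SE 0.62, and 0.50, SE 0.45; edgeR adjusted p = 0.92 and 0.53).

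In the pay-off phase, which yields ATP and pyruvate, Pgam1, Eno1 and Pkm fell, and Gapdh and Pgk1 lay lower without passing. Gapdh, the dehydrogenase often used as a reference gene in PCR, had 3243.3, 4565.5 and 2744.6 CPM in BPA libraries and 4953.8, 5098.9 and 4643.1 in untreated ones. BPA replicate 2 lay just under the lowest untreated library, so the groups did not overlap. The log2 fold change of Gapdh was -0.48 (SE 0.16, edgeR adjusted p = 0.083), and -0.71 without BPA replicate 2 (0.000117). It passed in 8 of 16 alternative fits. Pgk1, a kinase that makes ATP, had 64.7, 57.4 and 35.6 CPM in BPA libraries and 103, 86.5 and 71.8 in untreated ones (-0.73, SE 0.24, edgeR adjusted p = 0.080, and 0.0399 without BPA replicate 2; past the threshold in 6 of 16 alternative fits). Pgam1, a mutase, had 394, 457 and 391 CPM in BPA libraries and 623, 653 and 667 in untreated ones (-0.65, SE 0.13, edgeR adjusted p = 0.0099). Pkm, the pyruvate kinase gene, had 2685.7, 3222.7 and 2385.5 CPM in BPA libraries and 4198.0, 4580.9 and 4043.5 in untreated ones (-0.63, SE 0.13, edgeR adjusted p = 0.010). Pgam1 and Pkm lost the threshold without BPA replicate 1 or untreated replicate 1 or 2 (highest edgeR adjusted p 0.0684 for Pgam1 and 0.0872 for Pkm).

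The enolase gene Eno1 (chromosome 4, 150236721 to 150248879, mm10) had 549, 698 and 543 CPM in BPA libraries and 1240.4, 1202.2 and 1095.8 in untreated ones. Its level under BPA was 50.6% of that in untreated cultures (-0.98, SE 0.14, edgeR adjusted p = 0.0011), and the call was kept without each library (highest 0.0191). Of the 50-base stretches of the longest Eno1 transcript, 72.2% also occur in transcripts of other annotated genes, so the authors' counting could split its reads. The main such gene, Eno1b, had 131, 206 and 165 CPM in BPA libraries and 397, 377 and 343 in untreated ones, and it fell by 1.15 on the log2 scale (SE 0.18, edgeR adjusted p = 0.00171). Counts of Eno1b were 28.1% of those of Eno1 in BPA and 31.6% in untreated cultures. Such sharing was also large for Pgk1 (68.0%), Pgam1 (41.5%), Pkm (34.4%), Gapdh (27.8%, with 208 pseudogenes), Ldhb (27.0%) and Pfkfb2 (26.1%), and lower for Pdha1 (16.9%), Ldha (16.6%), Aldoa (13.5%) and Gpi1 (10.2%). The levels of these genes are therefore uncertain, and so is the place of Pgk1, whose level of 23.4 and 38.8 CPM per kilobase in BPA and untreated cultures was under that of its neighbours in the pathway. Eno2, the neuronal enolase, had 6.87, 11.7 and 9.79 CPM in BPA libraries and 8.22, 7.69 and 2.39 in untreated ones. Bpgm, which makes the red cell effector bisphosphoglycerate, had 19.4, 17.9 and 19.2 CPM in BPA libraries and 17.5, 11.7 and 14.7 in untreated ones, and neither passed (0.63, SE 0.51, and 0.36, SE 0.30; edgeR adjusted p = 0.48 and 0.50).

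**Figure D3:**
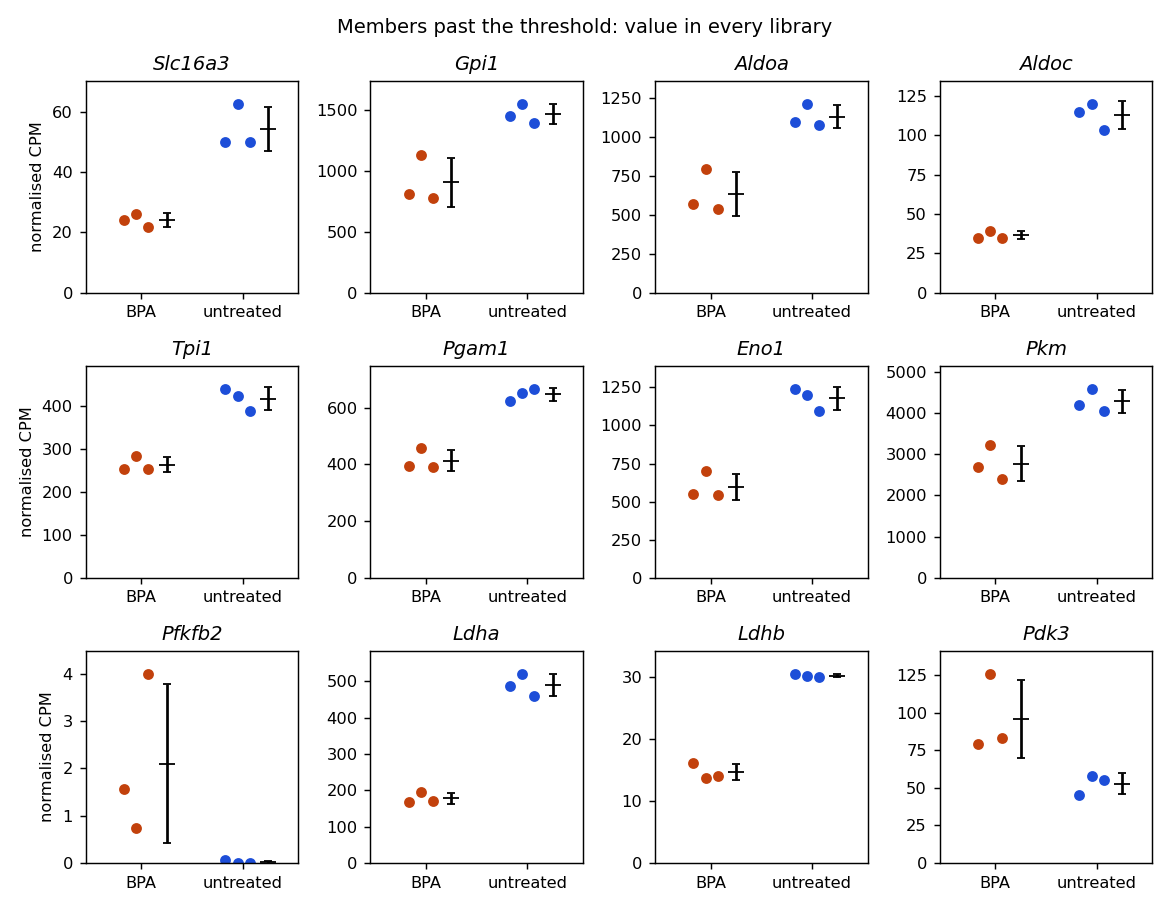
Normalised CPM of the 12 members past the threshold in each of the 3 BPA and 3 untreated libraries, with the mean and SD beside the points. In 10 panels every BPA library is below every untreated one, and in those of Pfkfb2 and Pdk3 every BPA library is above.

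Lactate dehydrogenase, which interconverts pyruvate and lactate, fell for both of its listed subunits. Ldha, which encodes the subunit typical of glycolytic tissue (chromosome 7, 46841475 to 46855627, mm10), had 168, 195 and 171 CPM in BPA libraries and 486, 520 and 460 in untreated ones. The groups were far apart, with BPA cultures at 36.4% of untreated ones (-1.46, SE 0.14, edgeR adjusted p = 8.5e-05, highest 0.00302 without each library). Ldhb, the subunit typical of heart, had 16.2, 13.7 and 14.1 CPM in BPA libraries and 30.5, 30.1 and 30.0 in untreated ones (-1.04, SE 0.26, edgeR adjusted p = 0.027). Its values did not overlap, but the call was lost without BPA replicate 1 or 3 or any 1 untreated replicate, at an edgeR adjusted p of up to 0.112. Summed per kilobase, the 2 genes gave 63.1 ± 3.85 in BPA and 167 ± 9.19 in untreated cultures (SD, n = 3 each), or 37.8% of the untreated level. That was the lowest percentage among 14 steps summed in this way. Enolase (Eno1 and Eno2 only) stood at 51.2%, aldolase at 54.3% and the single-gene steps from Gpi1 to Pkm at 60.4% to 71.8%. Hexokinase and phosphofructokinase stood at 93.2% and 101%.

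Promoters are shown for Ldha and Ldhb because both subunits fell and for Pgam1 and Hk2 as a lower member and one that did not pass. They were chosen after the values were seen, among windows that overlap no annotated exon. The sequences are RefSeq windows of the 250 bases before a transcript start in GRCm38.p6 (for Ldha a start inside the annotated gene), the assembly of mm10, read on the strand of the gene. Capitals mark ACGTG and GCGTG on either strand, the cores of the hypoxia response element bound by HIF. CACGTG, an E-box bound by MYC and related factors, contains ACGTG on both strands.
Ldha, chr7:46845554-46845803, plus strand: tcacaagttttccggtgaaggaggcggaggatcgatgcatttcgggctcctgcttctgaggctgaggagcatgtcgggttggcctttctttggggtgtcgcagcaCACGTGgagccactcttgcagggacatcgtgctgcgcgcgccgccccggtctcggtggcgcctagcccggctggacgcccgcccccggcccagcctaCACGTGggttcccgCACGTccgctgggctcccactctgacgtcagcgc
Ldhb, chr6:142507958-142508207, minus strand: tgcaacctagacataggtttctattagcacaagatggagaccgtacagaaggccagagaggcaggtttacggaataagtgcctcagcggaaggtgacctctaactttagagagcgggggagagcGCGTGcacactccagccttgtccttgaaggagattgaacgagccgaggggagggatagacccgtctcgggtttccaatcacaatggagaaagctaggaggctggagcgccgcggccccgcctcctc
Pgam1, chr19:41911621-41911870, plus strand: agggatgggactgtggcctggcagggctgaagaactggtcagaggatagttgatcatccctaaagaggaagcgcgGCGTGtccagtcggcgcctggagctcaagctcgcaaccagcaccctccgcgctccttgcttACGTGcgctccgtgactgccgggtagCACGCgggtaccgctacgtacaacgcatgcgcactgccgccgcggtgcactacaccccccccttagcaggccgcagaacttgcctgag
Hk2, chr6:82774455-82774704, minus strand: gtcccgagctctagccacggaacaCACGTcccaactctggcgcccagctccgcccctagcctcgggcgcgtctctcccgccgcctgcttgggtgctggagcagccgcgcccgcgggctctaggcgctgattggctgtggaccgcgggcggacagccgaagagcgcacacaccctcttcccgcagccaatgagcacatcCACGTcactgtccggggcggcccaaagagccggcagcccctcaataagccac

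The Ldha window held ACGTG 5 times, 4 of them in 2 CACGTG sites, the Ldhb window GCGTG once, the Pgam1 window ACGTG once and GCGTG 2 times, and the Hk2 window ACGTG 2 times. Promoter windows were found for 30 of the 31 members, and 25 of them held ACGTG or GCGTG in at least 1 window, against 41.5% of the 27025 genes of the table. By outcome that was 8 of the 10 lower members, 2 of the 2 higher ones and 15 of the 18 that did not pass. CACGTG was in 6 of the 30 (6.9% of all genes), GGGCGG, the GC box, in 21 (35.4%), and TGATGNAA, the core of the element bound by ATF4 and its partners, in 0 (3.9%). A match describes the letters of a window and is not a measured binding site. A gene with more windows had more chances of a match, and some members had up to 4 windows. The 27025 genes were not limited to those tested for expression, and whether members differ from expressed genes was not tested. HIF and MYC genes did not pass with all libraries: Hif1a was at 1.0 (SE 0.48), Epas1 at -1.55 (SE 0.53), Mycn at 0.41 (SE 0.22) and Myc at 0.67 (SE 0.78), with edgeR adjusted p of 0.22, 0.085, 0.26 and 0.64. Without BPA replicate 2 Hif1a was at 1.36 and Epas1 at -1.86, and both passed (edgeR adjusted p = 0.034 and 0.0424). Neither passed without any other single library, where their adjusted p reached 0.605 and 0.235. Of 13 transcription factors and oxygen sensors listed for glycolysis, 1 was higher, the stress factor Atf4 (3.81, SE 0.17, edgeR adjusted p = 1.2e-07), and 0 were lower. These are transcript levels: the activity of the factors was not measured, and their part in the members' levels was not tested.

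The pyruvate dehydrogenase complex feeds pyruvate to the citric acid cycle. Its subunits among the 31 members showed no call without a correction for GC and length. Pdha2, a subunit gene outside the members, was higher and is given below with the isozymes of later germ cells. Pdha1, an E1 subunit, had 33.6, 22.2 and 39.5 CPM in BPA libraries and 38.8, 42.1 and 53.3 in untreated ones. Pdhb, the other E1 subunit, had 248, 157 and 255 CPM in BPA libraries and 244, 223 and 225 in untreated ones, and Dlat, the E2 subunit, had 67.4, 67.4 and 53.7 in BPA libraries and 63.0, 53.2 and 72.9 in untreated ones. The groups overlapped for each of these subunits (log2 fold change -0.49, SE 0.27, -0.07, SE 0.19, and -0.01, SE 0.20; edgeR adjusted p = 0.28, 0.86 and 0.99). After that correction Pdha1 was at -0.77 and passed as lower (edgeR adjusted p = 0.0152, and 0.0219 with a replicate block as well). Of the kinases that switch the complex off, Pdk3 (chromosome X, 93764607 to 93832201, mm10) was higher. It had 79.0, 126 and 83.3 CPM in BPA libraries and 45.2, 58.2 and 55.4 in untreated ones, with no overlap (0.86, SE 0.22, edgeR adjusted p = 0.029). That call was lost without untreated replicate 1, 2 or 3 (edgeR adjusted p = 0.148, 0.085 and 0.0587) and after the GC and length correction (0.0507). Pdk1 had 34.8, 27.4 and 45.8 CPM in BPA libraries and 38.2, 33.0 and 40.1 in untreated ones (-0.05, SE 0.25). Pdk2 had 26.3, 37.0 and 19.5 CPM in BPA libraries and 31.4, 37.8 and 33.2 in untreated ones (-0.31, SE 0.28), and neither gene separated the groups (edgeR adjusted p = 0.94 and 0.54). The kinase genes summed per kilobase gave 50.9 ± 11.7 in BPA and 36.2 ± 3.33 in untreated cultures (SD, n = 3 each), without overlap.

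Isozyme shares asked which gene supplied a step, as its share of the summed CPM per kilobase of the members in its family. Genes outside the 31 members were left out. Enolase was therefore Eno1 and Eno2, without Eno1b or Eno3 (26.4 ± 9.17 CPM in BPA and 28.4 ± 2.87 in untreated cultures). Hk2 made up 33.1%, 27.3% and 30.2% of the hexokinase sum in BPA libraries and 15.6%, 14.0% and 16.6% in untreated ones. Pdk3 made up 70.7%, 76.3% and 73.0% of the kinase sum in BPA libraries and 54.3%, 58.4% and 58.0% in untreated ones, and the share of Pdk2 was 17 ± 2.81% in BPA and 29.8 ± 1.43% in untreated cultures (SD, n = 3 each). In these 3 shares the groups did not overlap. Slc16a3 made up 23.2 ± 7.31% of the lactate transporter sum in BPA and 46.5 ± 6.53% in untreated cultures, Pfkm 73.6 ± 2.89% and 65.3 ± 1.58% of phosphofructokinase, and Aldoc 4.94 ± 0.658% and 8.15 ± 0.34% of aldolase. Ldhb made up 14.9 ± 1.97% of the lactate dehydrogenase sum in BPA and 11.6 ± 0.622% in untreated cultures, and Ldha was the main subunit in every library. Across 12 shares, 9 had no overlap between groups, and each of these had p = 0.10 in a two-sided exact permutation test (0.133 after Benjamini-Hochberg adjustment). That is the smallest p that 3 against 3 samples allow, so no share could pass. The shares of Slc2a1, Pfkp and Pdk1 overlapped. Shares within a family are bound to each other, so those of Pfkl and Pfkm, and of Pdk2 and Pdk3, are not separate changes.

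**Figure D4:**
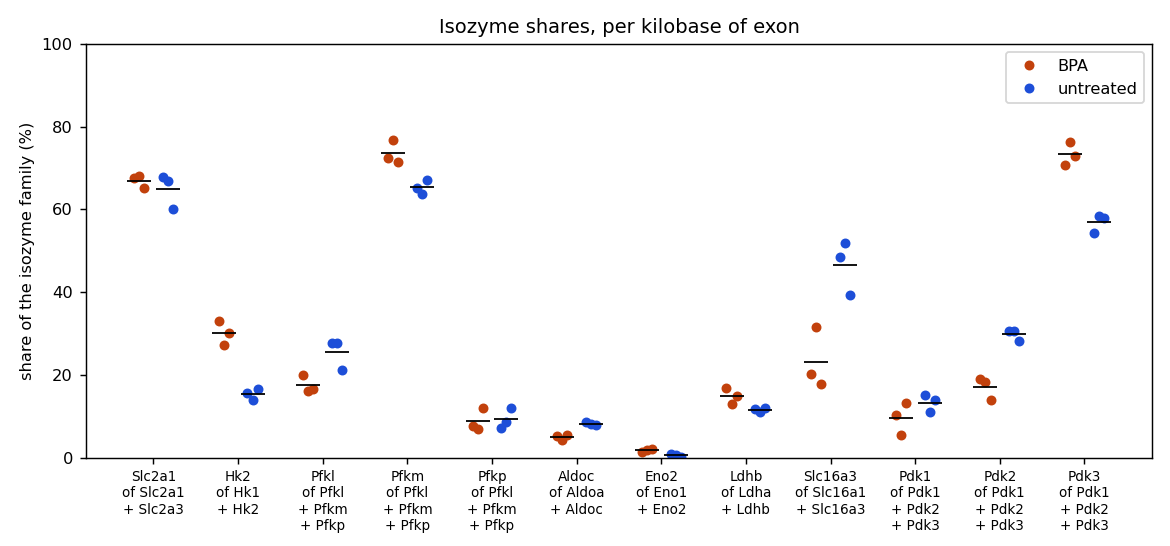
Share of each gene in the summed CPM per kilobase of the members in its isozyme family, in percent. The 3 BPA libraries are on the left and the 3 untreated libraries on the right, with a line at the group mean. Hk2, Pfkm, Eno2, Ldhb and Pdk3 take larger shares and Pfkl, Aldoc, Slc16a3 and Pdk2 smaller shares in every BPA library.

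Of 42 further genes of glycolysis, gluconeogenesis and pyruvate handling, 28 had enough counts to be tested, with 1 higher and 2 lower and a median of -0.03. The share called, 10.7%, was near the 10.6% of all genes tested. Pck2, the mitochondrial enzyme that makes phosphoenolpyruvate, was at 556 ± 122 CPM in BPA and 42.8 ± 1.66 in untreated cultures (SD, n = 3 each; 3.70, SE 0.19, edgeR adjusted p = 3.7e-07). Bsg, which encodes basigin, the partner that carries MCT1 and MCT4 to the membrane, was at 867 ± 130 CPM in BPA and 1210.9 ± 26.2 in untreated cultures (-0.48, SE 0.14, edgeR adjusted p = 0.040). Tigar, a phosphatase of fructose 2,6-bisphosphate, fell by 0.95 (SE 0.24, edgeR adjusted p = 0.026). Bsg and Tigar lost their calls without BPA replicate 1 or 3 or any 1 untreated replicate, where the edgeR adjusted p reached 0.172 for Bsg and 0.117 for Tigar. Of 9 isozymes and transporters known from later germ cells, 2 could be tested and 1 passed (10.6% of all genes did). Pdha2, a pyruvate dehydrogenase subunit without introns, was higher at 41.2 ± 6.6 CPM in BPA and 17.7 ± 1.99 in untreated cultures (1.22, SE 0.26, edgeR adjusted p = 0.011). That call was lost without BPA replicate 1 or untreated replicate 1 or 2, at an edgeR adjusted p of up to 0.0675. Eno4, the other gene tested, did not pass (-0.33, SE 0.5, edgeR adjusted p = 0.74). Pgk2 had 0 counts in every library, and Gapdhs and Ldhc had too few counts to be tested. Among 18 genes listed for the citric acid cycle, 0 were higher and 4 lower (22.2%, against 6.28% lower over all genes), with a median of -0.24. The lower ones included Suclg1 (-1.11, SE 0.15, edgeR adjusted p = 0.00085), Sdhb (-0.67) and Mdh1 (-0.87). Suclg1, a subunit of succinyl-CoA ligase, kept its call without each library (highest edgeR adjusted p = 0.0140). Sdhb lost its call without BPA replicate 1 or untreated replicate 1 or 2 (edgeR adjusted p up to 0.0757). Mdh1 lost it without BPA replicate 3 or any untreated replicate (up to 0.112). Mdh1 encodes the cytosolic malate dehydrogenase, and the enzyme of the cycle is the mitochondrial form, encoded by Mdh2. Mdh2 was at 1439.5 ± 288 CPM in BPA and 1439.2 ± 30.3 in untreated cultures (log2 fold change 0.0), with overlap.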

How the data were processed

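RNA-seq libraries of 3 BPA and 3 untreated samples were compared. The deposited table holds a read count and an FPKM value per gene and library. Per the submitters' processing notes, TopHat2 2.0.9, HTSeq and the mm10 build were used; the HTSeq version, its strand setting and the gene models were not given in the sources used here. Per the labels, the library kit was TruSeq RNA v2, which does not mark strand. The deposited FPKM values, made by the authors from gene lengths of their own, were used only to recover those lengths.

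Counts were tested with edgeR 4.0.16 (R 4.3.3; quasi-likelihood, TMM scaling, filterByExpr) over all 6 libraries, with Benjamini-Hochberg adjustment over 13287 genes and a threshold of 0.05. Totals ranged from 13453280 to 22286517 counts, and intervals cover counting error only. Levels per kilobase used merged exon lengths of GENCODE release 21 for mouse, which holds 98.6% of the gene identifiers. Copies were sought as shared stretches of 50 bases. Alternatives used DESeq2 1.42.0, limma 3.58.1 (voom), other scalings and filters, a GC and length correction, a replicate block, and each library left out. The fits were tested on simulated data. The labels say nothing that pairs equal replicate numbers, so the numbers were not taken to pair samples. Deviations of same-numbered libraries correlated at -0.021, 0.061 and 0.067, and those of differently numbered ones at -0.079 to 0.028. The values for replicates 2 and 3 were thus the highest, and a pairing was not excluded. Promoter sequences are from RefSeq.

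The members and lists were chosen with earlier results of these data known. All 31 members are accounted for. Those past the threshold or leading their step get values in every library. Of other lists up to 4 called genes, those of smallest adjusted p, are named. No gene is named of the Leydig and peritubular or the blood and endothelial list, in which none passed. Hif1a, Epas1, Myc, Mycn, Sall4, Gata4, Wt1, Amhr2, Fshr, Rhox5, Pgk2, Gapdhs and Ldhc were named outside this rule. So were Fn1, Col1a2, Col3a1, Col6a1, Dcn, Eno3, Eno4 and Mdh2. Of the lower genes of the citric acid cycle list, 1 is not reported here.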

Additional observations from a re-analysis of the deposited data

How the results depend on the processing

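The 10 lower members and the 2 higher ones kept their direction in every alternative that could be fitted; Pfkfb2 was not testable without BPA replicate 3 or with a minimum of 1 CPM in 3 samples. Against 2 higher members, 1 passed in limma-voom (3.81% of all genes), 5 with library size scaling (6.25%), 1 with the minimum of 1 CPM (4.73%) and 1 with the replicate block (5.43%). At a threshold of 0.01, 0 passed (1.17%), and without single libraries 0 to 3 passed (1.18% to 8.81%). Against 10 lower members, 6 passed at a threshold of 0.01 (2.42% of all genes), 12 with the replicate block (7.41%), 12 in DESeq2 (8.65%) and 12 with no low-count filter (5.29%). With the GC and length correction 14 passed (9.29%), and 14 with that correction and the replicate block (9.7%). Without single libraries 3 to 13 passed, the fewest without untreated replicate 2 (2.31%) and the most without BPA replicate 2 (11.7%). The members' median was -0.42 to -0.22 over all alternatives, with -0.35 to -0.22 without single libraries. Library size scaling moved the median of all genes to 0.21, and the members' median then lay 0.43 below it, against 0.41 below with TMM.

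Over all genes, 580 higher calls became 975 in DESeq2, 927 with no low-count filter, 897 with the GC and length correction, 912 with that correction and the replicate block, 155 at a threshold of 0.01 and 162 to 1207 without single libraries. The 835 lower calls became 1289 with the correction and block, 322 at 0.01 and 282 to 1600 without single libraries. The block alone gave 721 higher and 985 lower. Of the other glycolysis genes, 1 higher call became 2 with no filter and 1 to 3 without single libraries. The 2 lower calls became 4 in DESeq2, 4 with no filter, 7 with the correction, 6 with correction and block, 0 at 0.01 and 0 to 5 without single libraries. For the citric acid cycle list, 0 higher became 1 with the correction. Its 4 lower calls became 9 with correction and block, 1 at 0.01 and 1 to 7 without single libraries.

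Signs turned only for members that did not pass. Library size scaling gave 0.05 for Pfkp, 0.0049 for Pfkfb3, 0.08 for Pdk1, 0.06 for Pdhb and 0.09 for Dlat. Dlat was at 0.0039 with no filter, and Slc2a3 at -5.1e-05 with the correction and -0.02 with correction and block. Without single libraries, Pfkp ranged from -0.26 to 0.17 (0.08 without BPA replicate 1, 0.17 without untreated replicate 3) and Pfkfb3 from -0.41 to 0.24 (0.07 without BPA replicate 2, 0.24 without untreated replicate 2). Pdk1 ranged from -0.25 to 0.12 (0.12 without BPA replicate 2, 0.06 without untreated replicate 3), Pdhb from -0.19 to 0.12 (0.12 without BPA replicate 2) and Dlat from -0.11 to 0.15 (0.10 without BPA replicate 3, 0.15 without untreated replicate 3). The difference in the share of Slc2a1 was -0.422 to 3.44 points without single libraries, and that of Pfkp -1.97 to 0.924 points, with 0.247 without BPA replicate 1, 0.55 without BPA replicate 2 and 0.303 on raw counts. Shares on the lengths behind the deposited FPKM were added after seeing the data and turned no sign. The cause of these moves was not tested.

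The replicate numbers were not shown to pair samples. Having 3 libraries a group limits the precision, and low members such as Pfkfb2 rest on few reads.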
